A study of Drosophila melanogaster with 4 samples.

Results

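Chromatin binding of Hr78 on 2L, the left arm of the second chromosome of Drosophila melanogaster, is described here from 209 of the 1524 peaks in the authors' list. Every peak listed on 2L was taken, whatever its score, and the scaffold 2LHet was not counted with the arm. Of the 1095 peaks on the 6 chromosome arms, 19.1% lay on 2L (exact 95% binomial interval 16.8 to 21.5%).

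The study profiled embryos by chromatin immunoprecipitation and sequencing (ChIP-seq) in 2 ChIP libraries against 2 input libraries. All 4 came from the strain Hr78-GFP, collected at 8 to 16 h of development, which carries the Hr78 genomic coding region as a transgene in the genotype PBac{y[+]-attP-3B}VK00037. ChIP DNA was precipitated with the rabbit polyclonal antibody GFP ab290 and input DNA was not. The protocol for collecting embryos names y; bw cn sp flies and crosslinking in 1.8% formaldehyde for 15 min. No untagged line serves as a control, and the labels do not say whether the native Hr78 gene was left in place. VK00037 is a docking site on 2L itself, while the native gene lies on 3L.

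Hr78 is an orphan nuclear receptor, a transcription factor that binds DNA through zinc fingers and has no agreed ligand. In Drosophila it is needed for the onset of metamorphosis, and its protein has been mapped to many sites on polytene chromosomes, among them puffs that respond to the moulting hormone ecdysone. A ChIP-seq peak marks a stretch where more fragments were recovered after precipitation than the background predicts, in nuclei of all cell types of the embryo together.

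Each peak has a start, an end and a score, which is the authors' value for that peak on a scale that the file does not name. A single list serves all libraries, so values per library, replicate errors and sequencing depth are not known for any peak. Peaks of a list are not replicates. For that reason no significance test was run between arms, and the intervals given below cover counting error only. Positions are those of FlyBase release 5. No genome or annotation of that release was used here, so peaks carry no gene names and no sequence is shown.

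Binding along 2L reached its highest score at 5000974 to 5001949, a peak 976 bp wide with a score of 198.8. This peak ranked 5 among all arm peaks. It stood in a cluster of 4 peaks within 7296 bp. The neighbour at 4997267 to 4998456 was 1190 bp wide and scored 96.7, and the one at 5003693 to 5004562 was 870 bp wide and scored 61.8. Between them lay a narrow peak of 284 bp at 5000414 to 5000697 with a score of 12.1. The group thus held wide, high peaks around a narrow one near the bottom of the arm's range.

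The next highest peaks of the arm were single. The peak at 6722694 to 6724490 was the widest of 2L, at 1797 bp, and scored 158.0. The peak at 6455230 to 6456445 was 1216 bp wide and scored 129.6. Both were far wider than the typical peak of the arm, whose median width was 434 bp. The second widest peak, at 8083130 to 8084839, spanned 1710 bp but scored only 52.1 and ranked 40 on the arm.

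High peaks also came in close company further along. A pair of peaks, 642 and 622 bp wide, at 18702947 to 18703588 and 18708401 to 18709022 scored 120.2 and 100.4, the highest of the 16 pairs of neighbours on the arm. A run of 4 peaks over 88.9 kb, between 10334565 and 10423417, scored 35.9, 117.9, 78.8 and 113.3 in order of position. The ends of the run were picked with the scores in view, and the next peaks to its left and right scored 56.5 and 30.9. The run's peak of 117.9, at 10339177 to 10339714, was 538 bp wide. The same score of 117.9 belonged to a peak of 1156 bp at 15060649 to 15061804, which had no other peak within 689.9 kb on its left or 849.6 kb on its right. A high score therefore occurred on 2L both inside clusters and in isolation.

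Of all 209 peaks of 2L, 140 were single and 122 lay in the first 13 Mb of the arm's span. Of the 20 highest peaks of 2L, 15 were single and 15 lay in those first 13 Mb. Whether the 20 differ from the arm as a whole in these counts was not tested. The remaining ones among the highest 10 were at 10422551 to 10423417 (113.3), 5985963 to 5986509 (108.8), 12520200 to 12520708 (108.8) and 7426255 to 7427084 (102.8). Ranks 13 to 19 were held by peaks at 8477920 to 8478407 (96.3), 5800152 to 5800730 (92.7), 21142670 to 21143302 (92.0), 21757291 to 21758105 (90.5), 739963 to 740410 (87.7), 10964341 to 10964908 (85.6) and 13003995 to 13004484 (81.5). Rank 20 was the peak at 10387745 to 10388217 with 78.8, and rank 21 scored 77.4, so there was no break below the 20. Their widths ran from 448 to 1797 bp with a median of 627.5 bp.

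**Figure D1:**
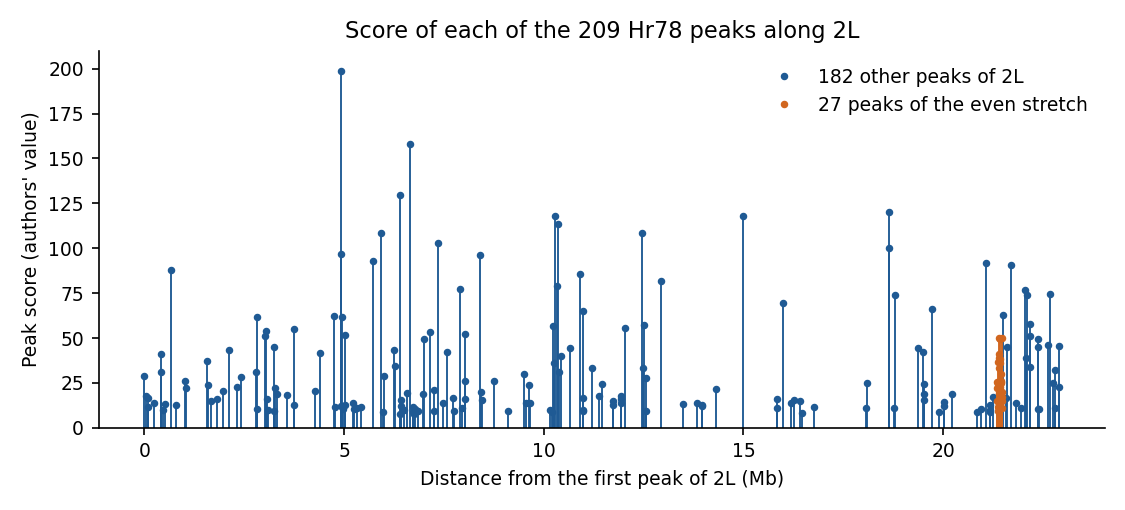
Score of each of the 209 peaks of 2L (vertical axis, the authors' value) against its distance in Mb from the first peak of the arm. Orange points are the 27 peaks of an evenly spaced stretch, none above 50.0, and blue points are the other 182 peaks, which reach 198.8.

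At the low end, 22 peaks of 2L (10.5%) scored under 10, against 15.1% on 2R, 3L, 3R and X together, called the other large arms below. The lowest was the peak at 6473378 to 6473620, with a score of 7.46 and a width of 243 bp. It was followed by 6805827 to 6806109 (7.86, 283 bp) and 16521391 to 16521602 (8.44, 212 bp). The lowest of all lay close to some of the highest peaks of the arm. Scores on 2L thus covered 7.46 to 198.8, with a median of 21.9 and quartiles of 12.99 and 45.2.

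The distribution of scores on 2L was set beside that of the other large arms. The median was 21.9 on 2L (95% order-statistic interval 17.9 to 25.6), against 17.5 on the other large arms (16.3 to 18.8), and these intervals overlapped. Without the evenly spaced stretch described below the median of 2L was 20.5 (16.7 to 26.1). By arm, the medians were 16.7 on 2R, 16.3 on 3L, 19.5 on 3R and 17.9 on X. The upper quartile was 45.2 on 2L and 33.6 on the other large arms, while the lower quartile was 12.99 on 2L and 11.9 on the other large arms. A score at or above 37.5, the upper quartile of the 6 arms, was reached by 66 of the 209 peaks of 2L, or 31.6% (exact 95% interval 25.3 to 38.3%), against 25.1% of all arm peaks. On the other large arms it was 22.2% (19.4 to 25.1%), with 22.98% on 2R, 15.0% on 3L, 23.6% on 3R and 28.0% on X. The small chromosome 4 stood above 2L, with a median score of 35.4 (23.4 to 66.2) and a share of 48.9% (34.1 to 63.9%) from 47 peaks. The lower bound for 2L lay just above the upper bound for the other large arms together, but its interval overlapped those of 2R, 3R and X taken singly. Among the 100 highest arm peaks, 21 were on 2L (21.0%, interval 13.5 to 30.3%), close to its 19.1% share of all arm peaks, and among the 200 highest 47 were (23.5%, 17.8 to 29.996%).

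**Figure D2:**
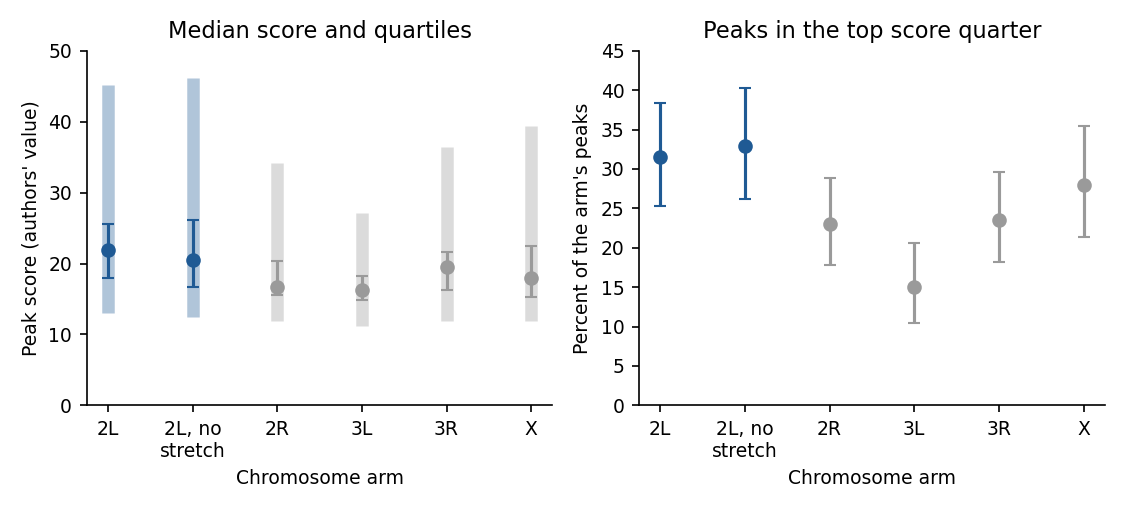
Left, median score of the peaks of 2L, of 2L without the evenly spaced stretch, and of 2R, 3L, 3R and X, with 95% order-statistic intervals as error bars and quartiles as pale bars. Right, percent of each arm's peaks with a score at or above 37.5, with exact 95% binomial intervals. The share was 31.6% on 2L and 33.0% without the stretch, against 15.0 to 28.0% on the other large arms. Chromosome 4, at 48.9%, is not plotted.

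The widths of 2L peaks were compared in the same way. The median width was 434 bp (390 to 488 bp), against 389 bp on the other large arms (371 to 403 bp), and these intervals overlapped as well. By arm it was 389 bp on 2R, 387 bp on 3L, 384 bp on 3R and 402 bp on X. Chromosome 4 had wider peaks than 2L, with a median of 536 bp (471 to 603 bp). Without the evenly spaced stretch described below the median of 2L was 419.5 bp (371 to 478 bp). Peaks of at most 300 bp made up 20.1% of 2L peaks and 29.1% of those on the other large arms. Peaks over 500 bp and up to 800 bp made up 30.6% on 2L and 21.9% on the other large arms, and wider ones 10.5% on 2L and 7.03% on the other large arms. The 209 peaks covered 102636 bp in all, which is 20.7% of the sequence under arm peaks.

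Width and score moved together across the peaks of 2L. Spearman's rho was 0.70 and Pearson's r was 0.60 (n = 209), given as a description because both values come from the same peak calling on the same libraries. The median score was 10.6 for the 42 peaks of at most 300 bp, 19.5 for the 81 peaks over 300 and up to 500 bp, 34.2 for the 64 peaks over 500 and up to 800 bp and 63.4 for the 22 wider ones. The classes still overlapped widely. In the widest class the scores ran from 17.2 to 198.8, and in the class up to 500 bp they ran from 9.03 to 96.3. For classes up to 800 bp the other large arms had much the same medians, of 11.2, 19.1 and 33.4. For wider peaks their median was 48.4, inside the interval of 38.5 to 102.8 for the 22 peaks of 2L.

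**Figure D3:**
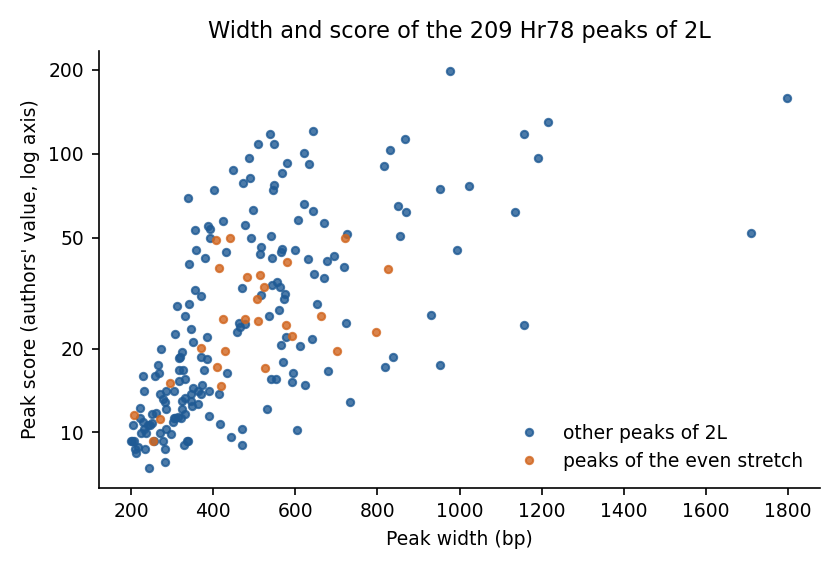
Score (vertical axis, the authors' value, log axis) against width in bp for the 209 peaks of 2L. Orange points are the 27 peaks of the evenly spaced stretch and blue points the other 182. Higher scores go with wider peaks, with rho of 0.70 over all 209, and a peak of 1710 bp with a score of 52.1 lies apart at the right.

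The next question was how the peaks are placed along the arm. The first peak of 2L, at 66679 to 67331, scored 28.9, and the last, at 22968109 to 22968566, scored 22.9, so the span from first to last peak was 22.9 Mb. It held 9.13 peaks per Mb (exact 95% Poisson interval 7.93 to 10.5), against 8.85 on the other large arms (8.26 to 9.47), a ratio of 1.03 (exact conditional interval 0.88 to 1.20). Arm by arm, the ratio of 2L was 0.82 to 2R (0.68 to 0.99), 1.08 to 3L (0.89 to 1.31), 1.11 to 3R (0.91 to 1.34) and 1.16 to X (0.94 to 1.43). Chromosome 4 was far denser, with 36.6 peaks per Mb (26.9 to 48.7), and the ratio of 2L to it was 0.25 (0.18 to 0.35). Peaks lie in groups, so these intervals are too narrow.

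Counted in 1 Mb bins from the first peak, 2L had a median of 7 peaks per bin over 22 full bins. The bins were far from even. Bin counts ran from 0 to 38, and without the evenly spaced stretch described below from 0 to 16. The other large arms had no empty bin, with lowest counts of 2 to 5 and highest counts of 19 to 26.

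Along its length 2L fell into parts that were set by eye after the counts were seen, and they are described without a test. The first 13 Mb held 122 peaks, or 9.38 per Mb (7.79 to 11.2), with a median score of 20.9 (16.7 to 28.5). The bin from 6 to 7 Mb was the fullest there with 16 peaks, most of them low, with a median score of 13.8 although the peaks ranked 2 and 3 on the arm lay in it. The bin from 10 to 11 Mb followed with 15 peaks and a higher median of 40.2. The bin from 12 to 13 Mb held only 7 peaks, with a median of 55.3.

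From 13 to 18 Mb the arm was sparse, with 14 peaks or 2.80 per Mb (1.53 to 4.70). Most of these were low, with a median score of 14.1 (11.4 to 21.6). The exceptions were the isolated peak of 117.9 already described and a narrow peak of 339 bp at 16049619 to 16049957 with a score of 69.5. The longest gap of the arm, 1313 kb, ran from 16827436 to 18140464 and was bounded by low peaks of 11.4 and 11.3. It was longer than the longest gap between peaks on any other large arm, which was 478.7 kb on 2R, 905.3 kb on 3L, 966.5 kb on 3R and 913.7 kb on X. The next longest gaps of 2L, of 849.6 and 689.9 kb, lay either side of the isolated peak, and those of 631.2 and 570.7 kb ended at 20922258 and 19430258. A gap here means that no peak was listed, and whether reads could be mapped there was not analysed here.

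From 18 to 21 Mb there were 18 peaks, or 6.00 per Mb (3.56 to 9.48). Beyond 21 Mb, towards the centromere, peaks were dense even without the evenly spaced stretch, with 28 peaks or 15.7 per Mb (10.5 to 22.7). Their median score was 36.5 (16.7 to 49.7) and their median width 544.5 bp. The higher median was that of the last bin. The 11 peaks from 21 to 22 Mb outside the stretch had a median of 16.7, below that of the arm. They nevertheless included the highest peaks beyond 21 Mb, of 92.0 at 21142670 to 21143302 and 90.5 at 21757291 to 21758105. The 17 peaks from 22 Mb on had a median of 45.2, and 10 of the 17 reached the upper quartile of the 6 arms, against 25.1% of all arm peaks. The highest of the last bin were 76.7 at 22120954 to 22121976, 74.7 at 22736059 to 22737011 and 74.1 at 22169067 to 22169612. No peak there exceeded 76.7, so the last bin combined many well-scored peaks with none of the arm's very highest.

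The highest peak in each 2 Mb of the span gives the profile of the arm's summits. From the first peak onward these scored 87.7, 61.8, 198.8, 158.0, 96.3, 117.9, 108.8, 117.9, 15.6, 120.2, 92.0 and 76.7. The part from 16 to 18 Mb was the only one without a high peak, its best being 15.6 at 16325543 to 16326094. In every other part the best peak scored at least 61.8, the value of a peak of 1136 bp at 2885920 to 2887055.

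**Figure D4:**
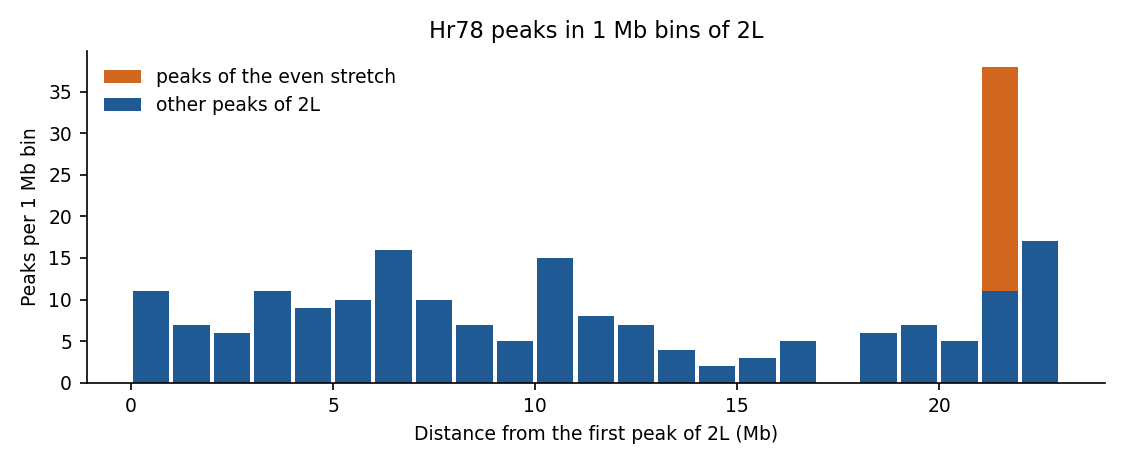
Number of peaks of 2L in bins of 1 Mb counted from the first peak, with the 27 peaks of the evenly spaced stretch in orange and the others in blue. The bin from 17 to 18 Mb is empty, the bin from 21 to 22 Mb holds 38 peaks of which 11 are outside the stretch, and the last bin, which is not full length, holds 17.

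Neighbouring peaks were then examined. With groups defined by at most 5 kb between the end of one peak and the start of the next, 2L had 140 single peaks, 16 pairs and 5 larger groups, 161 in all. Measured between midpoints, 58 peaks of 2L (27.8%, exact 95% interval 21.8 to 34.3%) had another within 5 kb, against 31.1% of all arm peaks and 30.3% on the other large arms (27.2 to 33.5%). Without the evenly spaced stretch the share on 2L was 20.9% (15.2 to 27.5%), so 20 of the 58 belonged to that stretch. No group was left out of the other large arms, so their 30.3% is not a like comparison for this share.

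The pairs of 2L differed widely in how alike their members were. Their midpoints lay 359.5 to 5444 bp apart, with a median of 1151 bp, and 7 of the 16 were under 1 kb apart. The score differed by 0.35 to 81.9 between members, with a median of 5.84. The closest match was at 14024031 to 14024765, with 12.5 and 12.1. The widest difference was at 10334565 to 10339714, with 117.9 and 35.9. Pairs near the centromere included 22247693 to 22249960, with 58.1 and 33.9, and 22429328 to 22431162, with 49.7 and 45.2.

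Outside the evenly spaced stretch only 3 groups held more than a pair. The cluster of 4 around the arm's highest peak has been described. A group of 3 at 12002002 to 12006782 was low throughout, with scores of 13.7, 16.3 and 17.5, although its last peak was 953 bp wide. A group of 3 at 19571815 to 19576999 scored 42.4, 15.6 and 24.3, and its last peak was 1156 bp wide. Peaks of groups outside the stretch had a median score of 16.7 (15.2 to 32.4, n = 42), against 21.4 for single peaks of the arm (17.2 to 28.5, n = 140), and the intervals overlapped. Their median width was 541.5 bp (349 to 607 bp), against 391.5 bp for single peaks (363 to 469 bp).

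The most regular feature of 2L was a stretch of 27 peaks between 21419669 and 21542380, made of groups of 7 and 20 peaks. The stretch was defined by the closeness of its peaks and is called evenly spaced after its core of 18. It took up 0.54% of the span and held 12.9% of the peaks of the arm. The nearest peaks outside it lay 109.3 kb to the left and 30.7 kb to the right, where the peak at 21573033 to 21573530 scored 63.1. Scores inside ran from 9.36 to 50.0 with a median of 25.2 (19.6 to 36.3). The upper quartile of the 6 arms was reached by 6 of the 27 (22.2%, 8.62 to 42.3%), close to the 25.1% of all arm peaks.

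Its core was a run of 18 peaks from 21453811 to 21539293, joined by 17 steps of 4641 to 5262.5 bp. A straight line through their midpoints gave a period of 5021 ± 11.3 bp (SE of the slope, n = 18 peaks). Peaks departed from the line by an SD of 247.7 bp, and by at most 632.2 bp, at the last of them. Steps near that end were mostly shorter than the period, so the departures are not independent of each other and the SE of 11.3 bp is too small. The run was also picked for steps within 10% of the median. No other part of 2L had more than 3 consecutive distances that were even to within 10% of their median, nor did any of the other 5 arms.

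The scores in the run, from left to right, were 19.6, 50.0, 33.3, 38.8, 40.9, 49.2, 36.3, 22.9, 17.1, 38.5, 25.2, 25.6, 30.1, 26.2, 19.6, 14.7, 20.1 and 11.1. Scores were mostly higher in the first part of the run than in the last, and the lowest, 11.1, was that of its last peak. The widths ran from 271 to 826 bp with a median of 507.5 bp. Peaks set at even steps were therefore unequal in both height and width.

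A distance of 14.1 kb, or 2.81 periods, separated the run from the first group of 7 peaks. That is not a whole number of periods. The 7 peaks were less regular, at 0, 5.06, 6.96, 10.4, 15.2, 19.6 and 20.1 kb from the first, and 2 of their steps were within 10% of the median step of the stretch. Their scores in the same order were 22.2, 25.6, 15.1, 9.36, 36.9, 11.6 and 24.3. The peaks that scored 15.1, 9.36 and 11.6 were narrow, at 296, 254 and 208 bp. At the far end of the stretch 2 peaks followed the run at steps of 1961.5 and 1056.5 bp, at 21540900 to 21541339 with 49.9 and at 21541972 to 21542380 with 17.1.

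**Figure D5:**
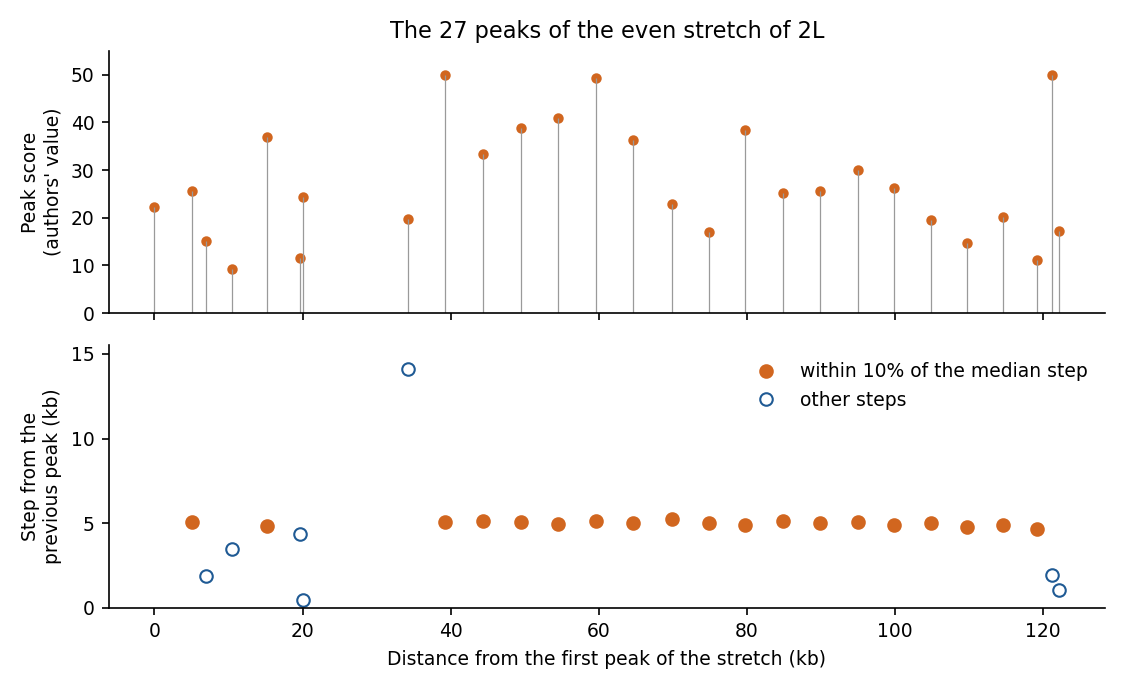
Above, score of the 27 peaks of the evenly spaced stretch against distance in kb from its first peak. Below, distance in kb of each peak from the one before it, with filled points within 10% of the median step. A total of 19 steps are even, 17 of them in a row, and a step of 14.1 kb separates the groups of 7 and 20 peaks.

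The replication-dependent histone genes of Drosophila, which encode the linker histone and the core histones and are transcribed in S phase, form a tandem array on this arm, near its centromeric end. The release 6 gene table (Release 6 plus ISO1 MT) lists 111 genes of the 5 families on 2L and 0 on other chromosomes. They comprise 23 copies each of His1, His2B and His3, 22 of His4 and 20 of His2A. They follow each other in 23 units between the genes nrv3 and Lamp1. In 19 units the order was His1, His2B, His2A, His4, His3, in 3 a His-Psi pseudogene stood in the place of His2A, and in 1 in the place of His4. The table and the peak list are on different releases, so the peaks were not assigned to these genes, and whether the stretch is the histone array was not tested. Units of a tandem array are nearly alike in sequence, and how reads that match several places were handled is not given in the sources used here. Whether the 27 peaks are 27 separately measured sites is thus not known and was not tested.

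Scores on 2L were also compared with the steps of a common background. If every peak were judged against 1 background level, a Poisson count model would allow only certain scores, each −log10 of a tail probability. With the level fitted to the list (48.9), 957 of the 1524 scores (62.8%) fell within 0.015 of such a step. The level was chosen to make this count as large as possible, and the share that would match by coincidence was not computed. On 2L this held for 138 of 209 peaks, or 66.0% (59.2 to 72.4%), against 74.9% of all arm peaks and 76.0% on the other large arms (73.0 to 78.9%). By arm it was 73.6% on 2R (67.5 to 79.1%), 72.5% on 3L (65.8 to 78.4%) and 69.9% on 3R (63.5 to 75.7%). On X it was 92.3% (87.1 to 95.8%). The interval for 2L thus overlapped those of 2R, 3L and 3R taken singly, but not that of X. In the evenly spaced stretch only 2 of 27 peaks were on the steps (7.41%, 0.91 to 24.3%). Without the stretch the share on 2L was 74.7% (67.8 to 80.9%), with no group left out of the other arms.

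Outside the stretch, the median score was 17.9 for the 46 peaks off the steps (12.8 to 26.3) and 21.9 for the 136 on them (16.7 to 30.9), and the intervals overlapped. By part of the arm, the share on the steps was 74.6% in the first 13 Mb (n = 122) and 71.4% from 13 to 18 Mb (n = 14). It was 61.1% from 18 to 21 Mb (n = 18) and 85.7% beyond 21 Mb (n = 28). The ends of the span were picked with their values in view. In the first 2 Mb of the span 9 of 18 peaks were off the steps, whereas from 22 Mb on all 17 were on them. The pair at 18702947 to 18709022 was off the steps at both peaks. Among the 20 highest peaks of the arm, 16 matched a step. The matching share was 74.7% for 2L outside the stretch and 74.9% for the 6 arms together. Whether the 20 highest peaks differ from these sets was not tested. What sets a score off the steps was not tested.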

How the data were processed

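The authors deposited 1 peak list for the series, with a start, an end and a score per peak. Per the file headers, positions are on FlyBase release 5, and the source column names MACS. Tools in the submitters' processing notes are MACS2, BWA and CASAVA (1.7.0.2 and 1.7.0.3), with build BDGP5. How the 2 ChIP and 2 input libraries entered the calling, and at what threshold, is not given in the sources used here. The score is used as deposited by the authors, and its scale is not named.

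All 209 rows of 2L were taken. Groups of at least 5 peaks, joined where under 20 kb apart, defined the stretch called evenly spaced. Evenness was no part of that rule, and 18 of its 27 peaks lie in the even run. Densities used the span from first to last peak of an arm. Intervals at 95% are exact Poisson, binomial or conditional ones, or order-statistic ones for medians. Peaks named are the 20 highest of 2L, the highest per 2 Mb of the span, members of groups of 3 or more and of the stretch, the first and last peak, the 3 widest and 3 lowest, and those at the 5 longest gaps. Pairs, the run of high peaks and any further peaks were picked with their values in view. Members, lists and parts of the arm were chosen with earlier results of these data known. Calculations used Python 3.11.15, numpy 2.4.6, pandas 2.3.3 and scipy 1.17.1, and functions were tested on simulated data.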

Additional observations from a re-analysis of the deposited data

How the results depend on the processing

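Of 26 recomputed values of 9 results, 20 stayed close to the value reported and 6 did not. Close means within its interval or, for counts and the rank correlation, which has no interval, within 1.5 times of it. The density of 2L, 9.13 peaks per Mb, became 7.03 with 5 kb groups counted once and 5.15 among the 118 peaks with a score at or above the median of the arms (50% of all arm peaks), both by construction since fewer peaks are counted. Its ratio to the other large arms, 1.03, became 1.23 among those higher-scoring peaks (0.996 to 1.52). It was 1.03 with the stretch left out of that set as well, an alternative chosen after seeing the data, and 0.90 with the stretch alone left out of all peaks. In both cases no group was left out of the other large arms. The share of peaks with a neighbour within 5 kb, 27.8%, became 20.9% without the stretch, 38.8% at 10 kb and 16.7% at 2 kb. No paired analysis was possible because the list gives no value per library, and leaving out a replicate was not possible for the same reason. Depth is unknown, so no site can be called unbound.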

Other observations

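The scaffold 2LHet, which holds heterochromatin of the same arm and was not counted with it, had 2 peaks. They lay at 32774 to 33556 and 34113 to 34914, were 783 and 802 bp wide and scored 63.1 and 78.8.

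Some scores recurred among the peaks of 2L, which took 162 different values. The score 9.35 occurred 7 times, and 13.7 and 14.1 occurred 4 times each. Within the evenly spaced stretch all 27 scores differed.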
